A study of Mus musculus with 10 samples.

Results

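The genes described here are 8 of the 9 genes of the Cyp3a subfamily of cytochrome P450 enzymes listed in the liver count data, namely Cyp3a11, Cyp3a13, Cyp3a16, Cyp3a25, Cyp3a41a, Cyp3a41b, Cyp3a44 and Cyp3a59. They were chosen by symbol from the 24052 gene symbols counted, and the one left out, Cyp3a57, had at most 1 count in any liver. Each of 10 mice with free access to food gave 1 liver RNA library, and 5 of them were wild type and 5 Ndrg3 LKO. Ndrg3 LKO livers carried a floxed Ndrg3 allele whose exon 4 was removed by Cre recombinase under the albumin promoter, which is active in hepatocytes, and the controls were wild-type littermates. The strain background was C57BL/6 in both groups. The labels give neither age nor sex, and the study's methods describe male mice in early adulthood. The deletion was aimed at hepatocytes, and whether other cells of the liver kept Ndrg3 was not tested.

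Cyp3a enzymes are haem-containing monooxygenases of the endoplasmic reticulum that oxidise drugs, steroids and bile acids, and they receive electrons from the reductase encoded by Por. Their genes are classical targets of the nuclear receptors PXR (Nr1i2) and CAR (Nr1i3), with Hnf4a and Cebpa among the liver factors that keep them active. In adult mice Cyp3a11 is the main form of the liver in both sexes. Cyp3a41a, Cyp3a41b and Cyp3a44 are known as forms of the female liver, and Cyp3a16 as a form of the fetal and newborn liver.

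Total counts ranged from 20872262 to 24747870 in the wild-type livers and from 23474693 to 30450057 in the Ndrg3 LKO livers. Levels are given as CPM, each count divided by the library total and scaled to 1e6, after adjusting the totals by TMM, a scaling that assumes most genes not to change. Ndrg3 itself stood at 15.9 to 21.9 CPM in wild-type livers and 7.08 to 9.18 CPM in Ndrg3 LKO livers (log2 fold change -1.20 ± 0.13 (SE), edgeR adjusted p = 3.87e-05). The count covers the whole gene, so reads from exons that were not deleted are included. Ndrg3 LKO replicate 5 stood apart from the rest of its group. Its 20 most abundant genes held 26.6% of its counts, against 16.3% to 17.3% in the other 4 Ndrg3 LKO livers and 26.2% to 28.0% in the wild-type livers. Its TMM factor was 0.904, against 1.20 to 1.36 in the other 4 and 0.805 to 0.916 in wild type. Values of the members are given with and without this liver, and those of other named genes where leaving it out moved the fold by over 1.5 times. Xist had at most 2 counts in any liver, and Y-linked Ddx3y had at least 991, so all 10 livers had the expression of male animals. The hepatocyte markers counted, Alb and Apoa1 among them, were abundant in every liver. They summed to 153815 to 190585 CPM in wild type and 42768 to 173126 CPM in Ndrg3 LKO. Alb stood at 108020 CPM in Ndrg3 LKO replicate 5, inside the wild-type range of 80612 to 115946 CPM, and at 20962 to 26379 CPM in the other 4.

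All 8 genes lie on chromosome 5 of mm9. Cyp3a13 stands alone at 138334160 to 138362847, and the other 7 are in a cluster between 146197178 and 146924861. Cyp3a59 is on the plus strand and the rest are on the minus strand. Each annotated main transcript has 13 exons. The coding sequences fell into groups by identity, computed from the GENCODE transcripts. Cyp3a41a and Cyp3a41b were 99.9% identical, Cyp3a44 was 95.8% identical to Cyp3a41a, and Cyp3a11 was 94.9% identical to Cyp3a44. Cyp3a25 and Cyp3a59 formed a second pair at 97.5%. Cyp3a13 was 75.2% to 76.8% identical to the other 7.

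**Figure D1:**
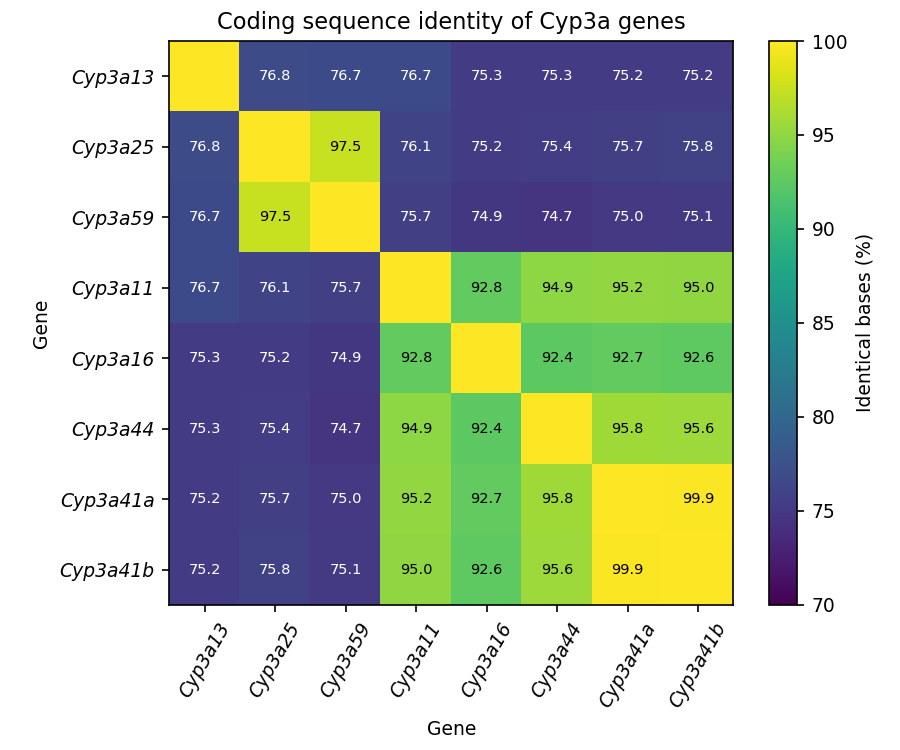
Percentage of identical bases between the coding sequences of the 8 Cyp3a genes, with both axes listing the genes. Cyp3a25 and Cyp3a59 form a pair at 97.5%, Cyp3a11, Cyp3a16, Cyp3a44, Cyp3a41a and Cyp3a41b form a group at 92.4% or more, and Cyp3a13 is under 77% from every other gene (76.8% at most).

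This likeness bears on the counts, because a read that fits 2 genes equally cannot be assigned. Of all 100-base stretches of the Cyp3a41a transcript, 90.8% also occurred in another coding transcript, 1723 of 1950 in Cyp3a41b and 47 in Cyp3a44. The share was 88.2% for Cyp3a41b. It was 6.05% for Cyp3a25 and for Cyp3a59, each with the other, and 2.79% for Cyp3a44. It was 0.312% for Cyp3a11, 0.123% for Cyp3a16 and 0% for Cyp3a13. The level of Cyp3a41a is therefore uncertain, and how reads that fit both copies were treated is not stated. Cyp3a13 overlaps the annotated gene Gm15502 on the same strand.

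Wild-type levels of the members spanned a wide range. Divided by transcript length, Cyp3a11 stood at 1644 ± 435 CPM per kb in wild type (SD, n = 5), Cyp3a25 at 311 ± 62.3, Cyp3a13 at 106 ± 19.5 and Cyp3a59 at 12.1 ± 2.42. These 4 did not overlap in that order. Cyp3a44 stood at 0.0940 ± 0.0467 CPM per kb and Cyp3a16 at 0.0357 ± 0.0250, and their ranges overlapped. Cyp3a41a had 2 counts in wild-type replicate 4 and 0 in the other 4 wild-type livers. Cyp3a41b had 0 counts in all 10 libraries, and 3 counts, taken as the smallest level a library can show, correspond to 0.0985 to 0.144 CPM of the whole library. That floor covers counting error only.

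In the Ndrg3 LKO livers the ranges of neighbouring members overlapped more. Cyp3a11 stood at 2020 ± 922 CPM per kb, Cyp3a25 at 162 ± 75.5 and Cyp3a13 at 62.4 ± 19.9, and the ranges of Cyp3a25 (63.9 to 272) and Cyp3a13 (47.4 to 97.4) overlapped, although Cyp3a25 was the higher in each of the 5 livers. Cyp3a44 had a mean of 22.8 ± 39.9 CPM per kb, with a range of 0.553 to 93.8 that took in the whole range of Cyp3a59, 4.37 to 18.9. Cyp3a44 was above Cyp3a59 in Ndrg3 LKO replicate 3 alone (93.8 against 17.2 CPM per kb) and below it in the other 4.

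**Figure D2:**
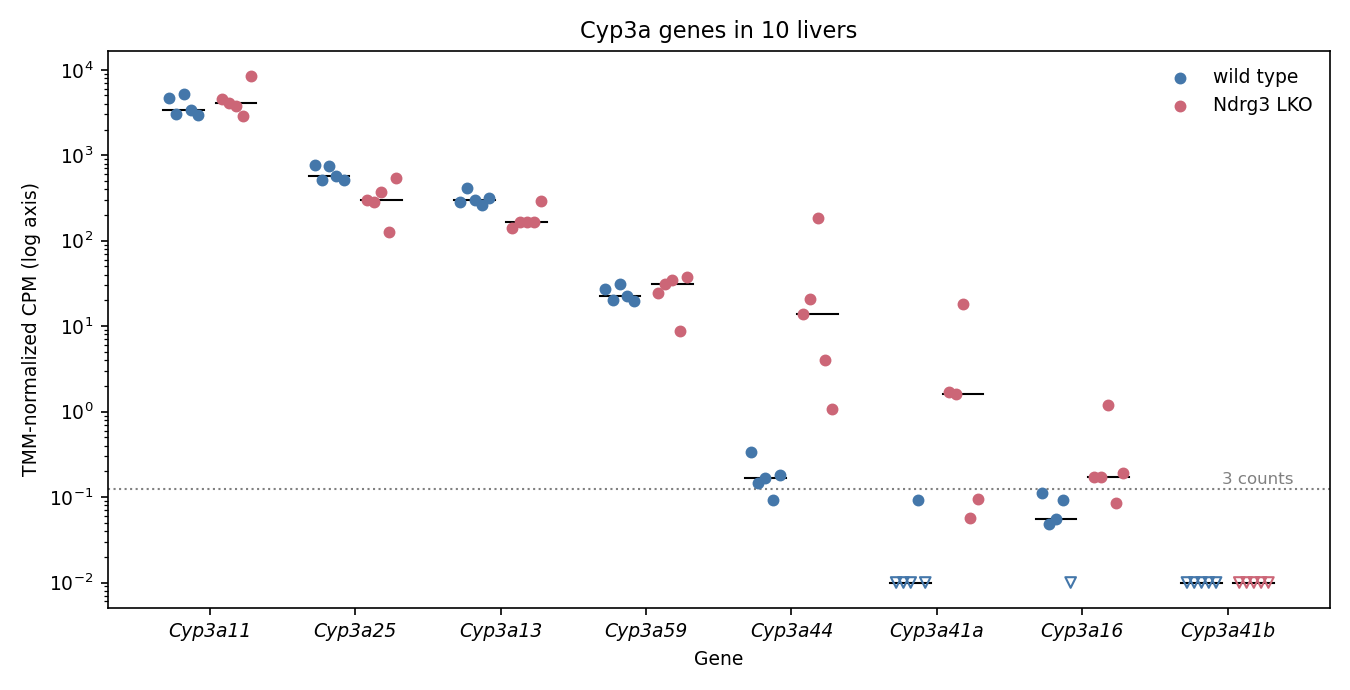
TMM-normalized CPM of the 8 Cyp3a genes (log axis) in each of 5 wild-type (blue) and 5 Ndrg3 LKO (red) livers, ordered by replicate within a group, with a black bar at each median. Open triangles at the foot mark 0 counts, and the dotted line marks 3 counts in a library of median size before TMM, so 3 counts can plot off the line. Cyp3a44 lies between 0.0920 and 0.337 CPM in wild type and between 1.09 and 184 CPM in Ndrg3 LKO.

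Ndrg3 LKO was compared with wild type by edgeR's quasi-likelihood test over the 11208 genes that reached 1 CPM in 5 or more livers, adjusted by the Benjamini-Hochberg method at 0.05. Of the 8 members, 4 passed this filter, namely Cyp3a11, Cyp3a13, Cyp3a25 and Cyp3a59. Cyp3a13 and Cyp3a25 were called, both lower in Ndrg3 LKO, which is 2 of 4 tested. Of all genes tested, 48.6% were called, 25.6% higher and 23.0% lower, so the share of members called was near that of all genes. The median log2 fold change was -0.29 for the 4 members and 0.03 for all genes tested.

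Cyp3a25 is a minor form expressed in liver and intestine. It stood at 772, 517, 738, 577 and 508 CPM in wild-type replicates 1 to 5 and at 298, 281, 369, 128 and 544 CPM in Ndrg3 LKO replicates 1 to 5. Ndrg3 LKO replicates 1 to 4 lay below every wild-type liver, and replicate 5 lay inside the wild-type range. The log2 fold change was -0.94 ± 0.31 (SE), a fold of 0.520 (edgeR adjusted p = 0.0244). The 2-sided exact permutation test of mean log2(CPM + 1) over all 252 splits of the livers gave p = 0.0238, where the smallest possible is 0.00794. The call was near the threshold: leaving out wild-type replicate 1 or 3, or Ndrg3 LKO replicate 1 or 2, gave edgeR adjusted p = 0.0561, 0.0533, 0.0589 and 0.0505. Without Ndrg3 LKO replicate 5 it was -1.19 (edgeR adjusted p = 0.00299).

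Cyp3a13 lies apart from the cluster and has no near copy among the members, with a coding identity of 76.8% at most. In wild-type replicates 1 to 5 it stood at 286, 410, 297, 260 and 312 CPM. It stood at 140, 165, 167, 163 and 288 CPM in Ndrg3 LKO replicates 1 to 5. Again only Ndrg3 LKO replicate 5 reached the wild-type range. The log2 fold change was -0.76 ± 0.21 (SE), a fold of 0.589 (edgeR adjusted p = 0.0101), and the 2-sided exact permutation p was 0.0238. Cyp3a13 kept its call when any 1 liver was left out, with edgeR adjusted p from 0.000274 to 0.0319. Without Ndrg3 LKO replicate 5 the log2 fold change was -0.96.

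Cyp3a11, the main drug-oxidising form of mouse liver, was the most abundant member in every liver. It stood at 4727, 3048, 5170, 3346 and 2982 CPM in wild-type replicates 1 to 5 and at 4553, 4060, 3767, 2852 and 8439 CPM in Ndrg3 LKO replicates 1 to 5. The groups overlapped, with the highest value in Ndrg3 LKO replicate 5 and the lowest in Ndrg3 LKO replicate 4. The log2 fold change was 0.30 ± 0.30 (SE) with a 95% interval of -0.35 to 0.94 (edgeR adjusted p = 0.427). That interval takes in falls and rises, so these livers do not settle the direction. Without Ndrg3 LKO replicate 5 the log2 fold change was 0.01, with an interval of -0.46 to 0.47.

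Cyp3a59, the near-twin of Cyp3a25, stood at 26.9, 20.5, 31.2, 22.3 and 19.7 CPM in wild-type replicates 1 to 5. In Ndrg3 LKO replicates 1 to 5 it stood at 24.4, 31.0, 34.3, 8.73 and 37.8 CPM. Its lowest value and its 2 highest were all in the Ndrg3 LKO group. The log2 fold change was 0.18 ± 0.31 (SE) with a 95% interval of -0.50 to 0.85 (edgeR adjusted p = 0.659), and without Ndrg3 LKO replicate 5 it was 0.06.

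The sizes and calls of the changes of these 4 members depended on the scaling in part, while their directions did not. Divided by library size alone, without TMM, the median over all tested genes moved from 0.03 to 0.56 on the log2 scale, and the share of called genes that were higher moved from 52.6% to 85.3%. On that scale Cyp3a11 was called higher (log2 fold change 0.76, edgeR adjusted p = 0.0116), as were 52.1% of all genes, and Cyp3a13 and Cyp3a25 kept their direction but lost their calls (log2 fold changes -0.28 and -0.47, edgeR adjusted p = 0.149 and 0.137). Set against that median, the values were nearly the same on both scales. They were 0.27 with TMM and 0.19 with library size for Cyp3a11, -0.80 and -0.84 for Cyp3a13, -0.97 and -1.03 for Cyp3a25, and 0.14 and 0.12 for Cyp3a59. The fall of Cyp3a13 and Cyp3a25 is thus relative to most genes of the same liver.

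**Figure D3:**
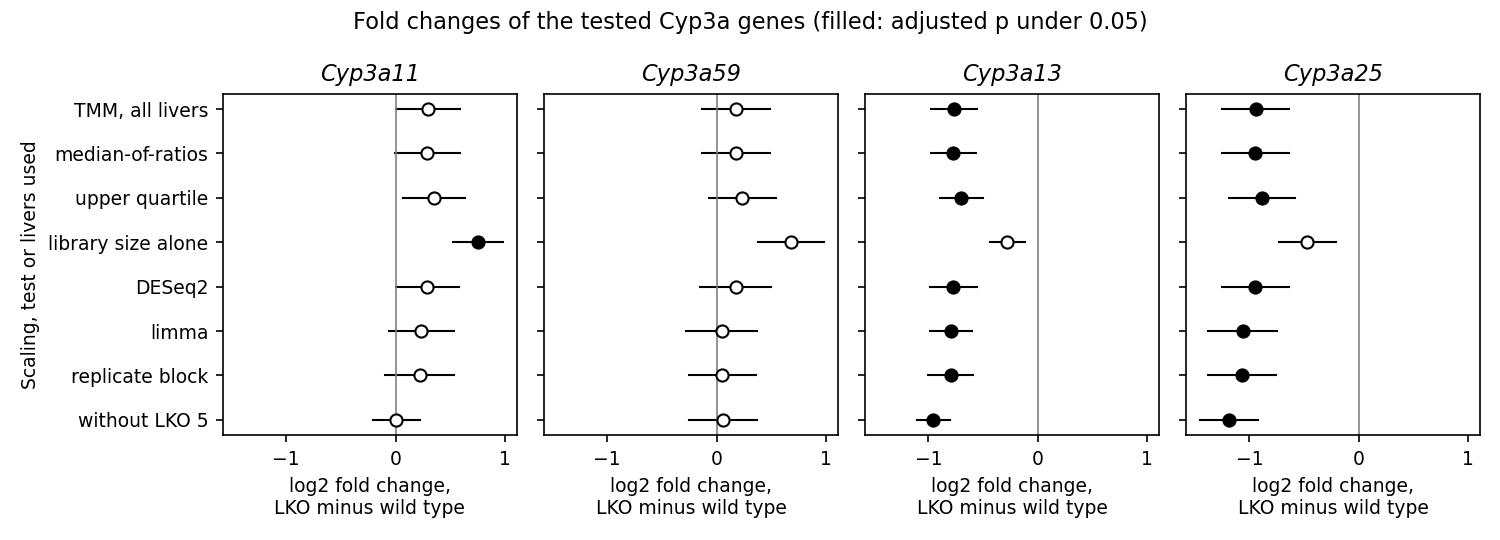
Log2 fold changes of the 4 tested Cyp3a genes, Ndrg3 LKO minus wild type (horizontal axis), with bars of 1 SE, under 8 choices of scaling, test or livers (vertical axis). Filled points have an adjusted p under 0.05. Cyp3a13 and Cyp3a25 lie below 0 under each of the 8, and Cyp3a11 is called only with library size alone.

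Ratios of counts within a liver do not depend on the scaling of libraries. The 6 ratios between the 4 tested members were compared, a choice made after values had been seen, and p-values were adjusted over the 6. Cyp3a25 counts were 16.3%, 17.0%, 14.3%, 17.2% and 17.0% of Cyp3a11 counts in wild-type replicates 1 to 5. They were 6.54%, 6.92%, 9.79%, 4.48% and 6.44% in Ndrg3 LKO replicates 1 to 5. The groups did not overlap, and replicate 5 of the Ndrg3 LKO group lay among the others. The ratio was 0.406 times that of wild type (2-sided exact permutation p = 0.00794, the smallest possible, adjusted p = 0.0159).

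Cyp3a13 counts were 5.75% to 13.5% of Cyp3a11 counts in wild type and 3.07% to 5.72% in Ndrg3 LKO, again without overlap though by a narrow margin (fold 0.490, the same exact permutation p and adjusted p). The ratio to Cyp3a11 was lower without overlap for 11.3% of the 11207 other genes tested, which is the background for these 2 members. Cyp3a59 counts were 0.569% to 0.672% of Cyp3a11 counts in wild type and 0.306% to 0.910% in Ndrg3 LKO, and this ratio overlapped (exact permutation p = 0.540).

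The near-identical pair changed in its own balance. In wild-type replicates 1 to 5 Cyp3a59 counts were 3.48%, 3.97%, 4.22%, 3.87% and 3.87% of those of Cyp3a25. They were 8.20%, 11.0%, 9.30%, 6.83% and 6.95% in Ndrg3 LKO replicates 1 to 5. The lowest Ndrg3 LKO liver was above the highest wild-type liver. The ratio was 2.15 times that of wild type (2-sided exact permutation p = 0.00794, adjusted p = 0.0159), while a higher ratio to Cyp3a25 without overlap was found for 29.3% of the 11207 other genes. Within groups the pair moved together. The deviations of log2(CPM + 1) from the group means had a Pearson r of 0.94 over the 10 livers, a description in which both genes share each library and some sequence.

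**Figure D4:**
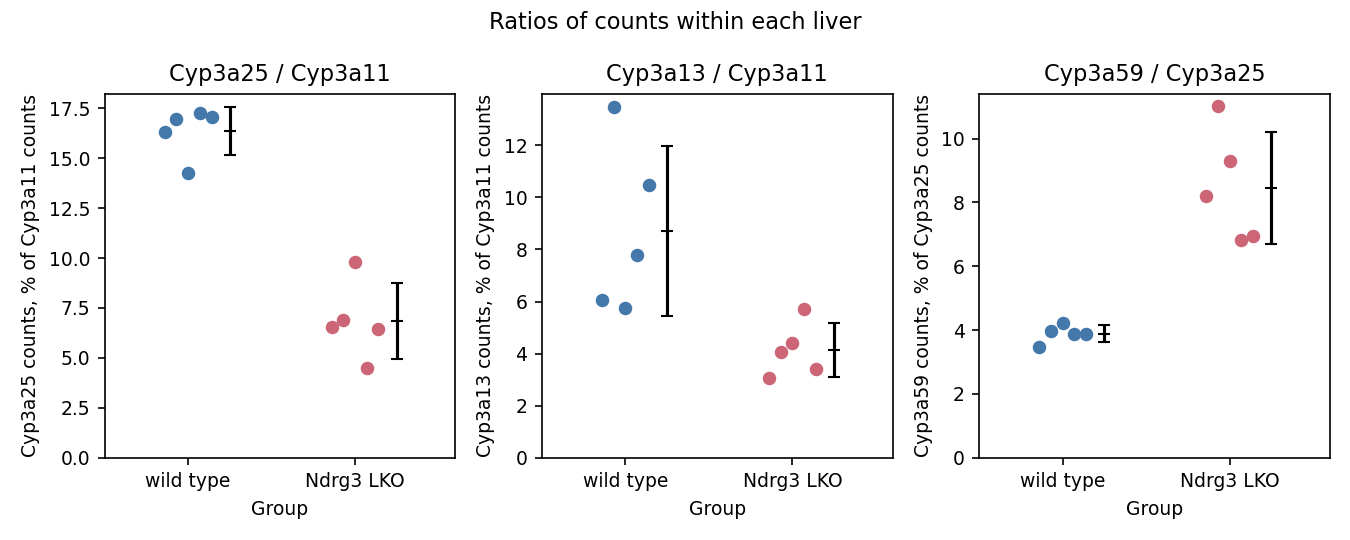
Counts of 1 Cyp3a gene as a percentage of another's in each liver (vertical axes, starting at 0) for wild type (blue) and Ndrg3 LKO (red), with the mean and SD of 5 livers beside the points. The 3 ratios shown do not overlap between groups, with Cyp3a25 at 14.3% to 17.2% of Cyp3a11 in wild type and 4.48% to 9.79% in Ndrg3 LKO.

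The summed level of the 8 members was 3822 to 6237 CPM in wild type and 3156 to 9310 CPM in Ndrg3 LKO, with overlap. Cyp3a11 made up 76.3% to 82.9% of that sum in wild type and 83.0% to 90.6% in Ndrg3 LKO. Cyp3a25 made up 11.8% to 13.7% and 4.05% to 8.12%, and Cyp3a13 4.77% to 10.3% and 2.78% to 5.17%. The composition therefore shifted towards Cyp3a11, with a further 4.05% from Cyp3a44 in Ndrg3 LKO replicate 3.

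Cyp3a44, Cyp3a41a and Cyp3a16 did not pass the filter and were tested in a fit of all 17746 genes with at least 1 count. In that fit all 3 were called higher in Ndrg3 LKO, beside 18.5% of all genes called higher and 35.0% called in either direction. A gene near 0 in wild type can be called only as a rise, so the count of 3 says nothing about the share of members that changed.

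For Cyp3a44, a form of the adult female liver, wild-type replicates 1 to 5 had 6, 3, 3, 2 and 3 counts, and Ndrg3 LKO replicates 1 to 5 had 482, 862, 7138, 139 and 23 counts. As levels these were 0.337, 0.147, 0.167, 0.0920 and 0.179 CPM in wild type against 13.9, 20.9, 184, 3.97 and 1.09 CPM in Ndrg3 LKO. Every Ndrg3 LKO liver was above every wild-type liver, which was the case for 12.5% of the 17746 genes, and Ndrg3 LKO replicate 3 alone held 82.6% of the group's counts. The fitted log2 fold change was 7.88 ± 1.39 (SE) (edgeR adjusted p = 0.000811) and the 2-sided exact permutation p was 0.00794, the smallest possible. Counts pooled over each group gave a ratio of 282, with an exact 95% interval of 176 to 484 for counting error only. Without Ndrg3 LKO replicate 3 the pooled ratio was 63.5, with an interval of 39.5 to 109, and the fitted log2 fold change was 5.72 (edgeR adjusted p = 0.000168).

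Cyp3a41a, a form of the female liver close to Cyp3a44 in sequence, had 59, 67, 706, 2 and 2 counts in Ndrg3 LKO replicates 1 to 5, against the 2 counts of wild-type replicate 4. Ndrg3 LKO replicates 4 and 5 were within the wild-type range of counts, and replicate 3 held 84.4% of the group's counts. The pooled ratio was 231, with an exact 95% counting interval of 63.9 to 1915, and 46.6 (12.6 to 389) without Ndrg3 LKO replicate 3. The fit of all genes gave edgeR adjusted p = 0.00475, the 2-sided exact permutation test p = 0.0159, and limma on log2(CPM + 1) adjusted p = 0.119. In the 5 Ndrg3 LKO livers Cyp3a41a counts were 12.2%, 7.77%, 9.89%, 1.44% and 8.70% of Cyp3a44 counts. Of its 100-base stretches 47 also occur in Cyp3a44, and the part of its counts that such reads make up was not tested. Summing Cyp3a41a with Cyp3a41b changed no value, since Cyp3a41b was at 0.

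For Cyp3a16, the fetal form, wild-type replicates 1 to 5 had 2, 1, 1, 2 and 0 counts. Ndrg3 LKO replicates 1 to 5 had 6, 7, 46, 3 and 4 counts. Outside Ndrg3 LKO replicate 3, which held 69.7% of the group's counts, it stood between 0.0856 and 0.189 CPM in Ndrg3 LKO, close to the level of 3 counts. With all livers its log2 fold change was 2.42 ± 0.85 (SE) (edgeR adjusted p = 0.0404) and without replicate 3 it was 1.18 (edgeR adjusted p = 0.195). The pooled ratio without that liver was 2.39, with a counting interval of 0.925 to 7.27. The call of Cyp3a16 was also lost when any 1 of the 5 wild-type livers was left out (edgeR adjusted p from 0.0560 to 0.0826). Leaving out Ndrg3 LKO replicate 5 instead gave log2 fold changes of 8.19 for Cyp3a44, 7.68 for Cyp3a41a (7.37 with all livers) and 2.56 for Cyp3a16. Ndrg3 LKO replicate 3 was the highest liver for all of Cyp3a44, Cyp3a41a and Cyp3a16.

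The start of these 3 genes and of Cyp3a41b is shown because they were the members at or near 0 in wild type and are near copies of each other there. The lines give the 100 bases before the RefSeq start site, read 5′ to 3′ from mm9, all on the minus strand of chromosome 5. They lie at chr5:146617451-146617550 for Cyp3a44, chr5:146531713-146531812 for Cyp3a41a, chr5:146345600-146345699 for Cyp3a41b and chr5:146230593-146230692 for Cyp3a16. Capitals mark bases that differ from the aligned base of Cyp3a44, which is in lower case throughout.
Cyp3a44: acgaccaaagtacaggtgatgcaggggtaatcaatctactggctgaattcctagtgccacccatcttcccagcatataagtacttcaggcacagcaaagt
Cyp3a41a: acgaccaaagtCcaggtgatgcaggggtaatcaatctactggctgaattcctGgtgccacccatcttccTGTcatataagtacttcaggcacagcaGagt
Cyp3a41b: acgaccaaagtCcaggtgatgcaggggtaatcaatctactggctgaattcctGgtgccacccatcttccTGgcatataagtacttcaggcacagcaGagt
Cyp3a16: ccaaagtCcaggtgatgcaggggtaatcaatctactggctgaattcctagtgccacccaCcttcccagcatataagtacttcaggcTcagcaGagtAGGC

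Cyp3a41a differed from Cyp3a44 at 6 of these bases, Cyp3a41b at 5 and Cyp3a16 at 8, of which the last 4 lie past the end of the aligned Cyp3a44 window. Over the 250 bases before the start, Cyp3a44 was 94.4% identical to Cyp3a41a and 92.9% to Cyp3a16, but 71.7% to Cyp3a11, whose transcript was abundant in both groups. Cyp3a25 and Cyp3a59 were 94.8% identical to each other over this stretch.

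Motifs were searched in the RefSeq promoters, 250 bases before to 50 after the start. The core of the STAT5 motif, TTCNNNGAA on either strand, was found in none of the 8 members and in 8.47% of all 27018 promoters. The TATA-like heptamer ATATAAG on the sense strand was added after reading the sequences. It began at -27 in Cyp3a44, Cyp3a41a and Cyp3a41b and at -31 in Cyp3a16, and it occurred in 1.71% of all promoters. In Cyp3a25 and Cyp3a59 it was at -188 and -189 instead. The nuclear receptor hexamer AGNTCA on either strand was in all 8 members and in 46.5% of all promoters. A direct repeat of it spaced by 3 bases was in none of the 8 windows and in 0.0740% of all promoters, and an everted repeat of it spaced by 6 bases was in none and in 0.0370%. These are matches of letters in short windows and not binding sites.

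Cyp3a44 and Cyp3a41 share their female pattern with other liver genes set by the rhythm of growth hormone secretion. Of 16 female-biased genes listed, 9 were tested, 7 were higher and 1 lower in Ndrg3 LKO, with a median log2 fold change of 2.36 beside 0.03 for all genes. Among all genes tested, 25.6% were called higher and 23.0% lower. Among the 9, Cyp2b9 and the receptor gene Ntrk2 passed the filter without any wild-type liver at 1 CPM and so could only have risen. Of the other 7, 5 were higher and 1 lower, with a median of 2.25. Ntrk2 is named here after its values were seen. Cyp2b9, a female P450, stood at 0.0489 to 0.225 CPM in wild type and at 56.4, 29.0, 94.8, 3.17 and 109 CPM in Ndrg3 LKO replicates 1 to 5, values given as a description. Cyp2a4, a steroid hydroxylase close in sequence to Cyp2a5, stood at 0.538 to 2.34 CPM in wild type and at 103, 32.3, 62.5, 51.7 and 1700.3 CPM in Ndrg3 LKO replicates 1 to 5 (log2 fold change 8.36, edgeR adjusted p = 0.000527, and 5.75, edgeR adjusted p = 9.79e-07, without replicate 5). The highest liver for both was Ndrg3 LKO replicate 5, in which Cyp3a44 was at its lowest for the group. Atp6v0d2, a proton pump subunit, was lower (log2 fold change -1.93, edgeR adjusted p = 0.00850, and -2.55 without Ndrg3 LKO replicate 5).

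All 13 male-biased genes tested, of 14 listed, were lower in Ndrg3 LKO, with a median log2 fold change of -3.86. Among all genes tested, 23.0% were called lower. The list was chosen with earlier results of these data known. All 13 were lower with library size alone as well. Selenbp2, a selenium-binding protein, fell most, with 2162 to 3964 CPM in wild type and 1.39 to 31.8 CPM in Ndrg3 LKO (log2 fold change -8.30, edgeR adjusted p = 6.38e-05, and -9.33 without replicate 5). Mup21, a urinary protein of a family with many near copies, stood at 519 to 905 CPM in wild type and 1.19 to 22.6 CPM in Ndrg3 LKO (log2 fold change -6.23, edgeR adjusted p = 4.78e-05). For both, the lowest of the Ndrg3 LKO livers was replicate 3, the one with the highest Cyp3a44, as for Cyp4a12a, Cyp4a12b, Slco1a1, Mup20 and Serpina1e. The list did not share this as a whole. Cyp7b1, Elovl3 and Hsd3b5 were lowest in replicate 5, which had the lowest Cyp3a44, and Cyp2d9, C6 and Susd4 in other livers of the group.

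**Figure D5:**
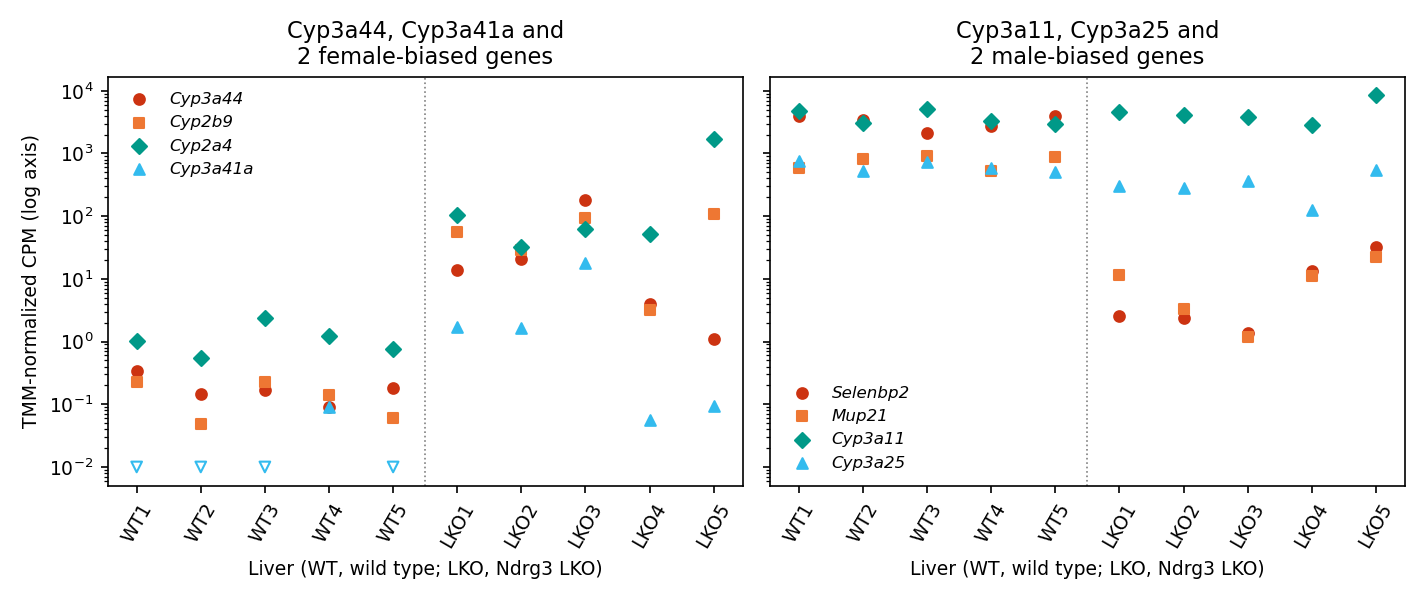
TMM-normalized CPM (log axis) in each of the 10 livers for Cyp3a44, Cyp3a41a and the female-biased Cyp2b9 and Cyp2a4 (left) and for Cyp3a11, Cyp3a25 and the male-biased Selenbp2 and Mup21 (right). Open triangles mark 0 counts. Cyp3a44 is highest in Ndrg3 LKO replicate 3, at 184 CPM, and Selenbp2 lies between 1.39 and 31.8 CPM in the Ndrg3 LKO livers.

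Of 11 tested genes of growth hormone signalling, of 12 listed, 5 were lower and 0 higher in Ndrg3 LKO by edgeR's adjusted p (median log2 fold change -0.62). The share called in either direction, 5 of 11, was near the 48.6% of all genes tested, of which 23.0% were lower. Socs2, a feedback inhibitor induced by growth hormone, was lower (log2 fold change -2.56, edgeR adjusted p = 0.000169), as was Igfals, which carries IGF1 in the blood (log2 fold change -2.48, edgeR adjusted p = 4.15e-05). With library size alone 3 of the 11 were lower and 1 higher.

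Of the regulators of Cyp3a genes, 17 of 18 listed were tested, and 7 were lower and 2 higher (5 and 6 with library size alone). The share called, 9 of 17, was near the 48.6% of all genes tested. Nr1i2, which encodes PXR, stood at 155 to 202 CPM in wild type and 124 to 164 CPM in Ndrg3 LKO and was not called (log2 fold change -0.21 ± 0.13 (SE), edgeR adjusted p = 0.178; with library size alone it was 0.31). Nr1i3, which encodes CAR, stood at 67.9 to 177 CPM against 13.5 to 47.7 CPM, without overlap, and was lower (log2 fold change -1.73 ± 0.38 (SE), edgeR adjusted p = 0.00304). Hnf4a, a master factor of hepatocytes, was lower (log2 fold change -1.58, edgeR adjusted p = 0.000134), and so was Cebpa (-1.76, edgeR adjusted p = 0.000475). The largest fall was in Nr0b2, the bile-acid-induced corepressor SHP (-2.18, edgeR adjusted p = 0.00286). The 2 that rose were Ppargc1a, a coactivator of the fasting liver (2.76, edgeR adjusted p = 7.04e-05), and Foxa2 (0.79, edgeR adjusted p = 0.00281).

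Other targets of PXR and CAR did not move as 1 group. Of 14 tested, 2 were higher, 6 lower and 6 not called, with a median log2 fold change of about 0 (4 higher and 4 lower with library size alone). Among all genes tested by edgeR, 48.6% were called, 25.6% higher and 23.0% lower. Gsta1, a glutathione transferase with close relatives, and Cyp2c55, a P450, rose (log2 fold changes 3.36 and 2.48, edgeR adjusted p = 0.00154 and 0.000206). Ces2a, a carboxylesterase, and Alas1, the first enzyme of haem synthesis, fell (-2.28 and -1.67, edgeR adjusted p = 0.00659 and 0.000782). Without Ndrg3 LKO replicate 5 the fall of Ces2a was -3.39.

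Of 4 tested genes for electron donors, Por and Cyb5r3 were lower and 0 were higher by edgeR's adjusted p, whereas with library size alone 0 were lower and 1 was higher. Among all genes tested by edgeR, 48.6% were called, 25.6% higher and 23.0% lower, which is also the background for the haem genes below. Por, the reductase that serves all microsomal P450 enzymes, stood at 1458 to 1939 CPM in wild type and 1042 to 1361 CPM in Ndrg3 LKO (log2 fold change -0.49 ± 0.15 (SE), edgeR adjusted p = 0.0213). With library size alone it was 0.04 and not called. Cyb5r3, a cytochrome b5 reductase, had a log2 fold change of -0.73 (edgeR adjusted p = 0.00408), and with library size alone it was -0.24 (edgeR adjusted p = 0.144). In haem synthesis, 2 of 8 tested genes were lower, Alas1 and Fech (-0.67, edgeR adjusted p = 0.00618), and Alad was higher (0.97, edgeR adjusted p = 0.00154), while with library size alone 5 of the 8 were higher and 1 lower and Fech was not called (-0.16). In haem breakdown, Hmox1 was higher (0.99, edgeR adjusted p = 0.00511) and the other 3 genes were not called, while with library size alone 3 of the 4 were higher.

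Across livers, the genes whose deviations from the group means were most like those of Cyp3a11 were Chpt1, Cyp2b10, Maob, Kiz and Chchd3. Their Pearson r over the 10 livers was 0.96, 0.95, 0.94, 0.94 and 0.94, and without the 2 livers in which Cyp3a11 was farthest from its median, Ndrg3 LKO replicate 5 and wild-type replicate 3, it was 0.85, 0.86, 0.86, 0.78 and 0.83. Spearman's rho was 0.92, 0.88, 0.84, 0.90 and 0.79. Cyp2b10, the classical CAR target, stood at 1.13 to 27.0 CPM in wild type and at 1.71 to 11.2 CPM in Ndrg3 LKO replicates 1 to 4, but at 89.9 CPM in replicate 5, the liver with the highest Cyp3a11. Cyp3a25 had an r of 0.86 with Cyp3a11, Cyp3a59 of 0.72 and Cyp3a13 of 0.46, the last turning to -0.30 without the 2 livers. These were chosen as the highest of 11207 values and are given as a description.

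Most markers of Kupffer, endothelial and stellate cells were higher in Ndrg3 LKO. Among all genes tested by edgeR, 48.6% were called, 25.6% higher and 23.0% lower. These shares are the background for the marker counts here and in the next paragraph. All 8 Kupffer cell markers tested were higher in Ndrg3 LKO, with a summed level of 93.9 to 253 CPM in wild type and 210 to 682 CPM in Ndrg3 LKO, led by Marco (log2 fold change 4.30, edgeR adjusted p = 9.07e-05) and Csf1r (1.49, edgeR adjusted p = 0.00377). Of 8 endothelial markers 7 were higher, with sums of 64.7 to 83.6 and 130 to 179 CPM, among them Lyve1 (1.99, edgeR adjusted p = 0.000772) and Pecam1 (1.31, edgeR adjusted p = 4.47e-05). Of 8 stellate cell markers 5 were higher, with sums of 113 to 178 and 240 to 313 CPM, led by Col3a1 (1.79, edgeR adjusted p = 0.000813) and Col1a1 (1.58, edgeR adjusted p = 0.00412).

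Of 6 tested cholangiocyte markers Spp1 was higher (1.27, edgeR adjusted p = 0.0181) and Sox9 lower (-0.86, edgeR adjusted p = 0.0157). The other 4 were not called, and the list summed to 49.9 to 80.6 and 57.0 to 229 CPM. With library size alone 3 of the 6 were higher and 0 lower, and Sox9 was not called (-0.29, edgeR adjusted p = 0.377). The 1 tested lymphocyte marker, Ptprc, was higher (1.27, edgeR adjusted p = 0.00395), and the list summed to 3.26 to 4.96 and 4.59 to 14.8 CPM. No neutrophil marker was tested, with sums of 0.238 to 0.978 and 0.898 to 13.2 CPM. Of 11 hepatocyte genes tested 7 were lower and 4 not called, Apoa1 (-2.34, edgeR adjusted p = 0.0110) and Tat (-1.78, edgeR adjusted p = 0.0145) falling most. Without Ndrg3 LKO replicate 5, 10 of the 11 were lower, with log2 fold changes of -3.51 for Apoa1 and -2.64 for Tat. In a whole liver, fewer hepatocytes and less RNA of a gene per hepatocyte cannot be told apart, and the part of these markers in the fall of Cyp3a13 and Cyp3a25 was not tested. Cyp3a11 had a log2 fold change of 0.30 over the same livers, and its relation to these markers was not tested either. Of the markers counted, 0 were at 0 in all livers.

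Cyp3a16 is also read as a mark of the immature liver. Of 8 fetal liver genes, 3 were tested. Afp was higher (log2 fold change 2.81, edgeR adjusted p = 0.000117), Gpc3 was higher (1.68, edgeR adjusted p = 0.00454) and 1 was not called. Among all genes tested, 25.6% were called higher. In the fit of all 17746 genes, 3 of the 8 were called higher, beside 18.5% of all genes. The median log2 fold change of the 8 in that fit was 0.78, beside 0.11 for all genes. The summed level of all 8 was 3.47 to 8.88 CPM in wild type and 8.65 to 20.4 CPM in Ndrg3 LKO, and these ranges overlapped. H19 made up 6.38 CPM of the sum in wild-type replicate 5 and 10.2 CPM in Ndrg3 LKO replicate 5. Peg3 stood at 0.279 to 2.30 CPM in wild type and 0.283 to 2.84 CPM in Ndrg3 LKO. Igf2, Dlk1 and Lin28b were under 1 CPM in every liver.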

How the data were processed

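Liver RNA was sequenced from 5 wild-type and 5 Ndrg3 LKO mice. The authors prepared stranded mRNA libraries with paired-end reads, mapped them to mm9 with STAR and counted reads in each gene with its count module. The deposited values are whole-number counts, not normalized. The submitters' processing notes list bcl2fastq, Trim Galore 0.6.4, STAR 2.7.3a and Cufflinks 2.2.1. The annotation, the strand setting and the treatment of reads that fit several genes are not given in the sources used here. Each library was taken as 1 animal, and where the labels do not say so, p-values measure the spread between these samples.

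Counts were tested with edgeR 4.0.16 in R 4.3.3 (TMM, quasi-likelihood F test, genotype as the only term, at least 1 CPM in at least 5 livers, 11208 genes, Benjamini-Hochberg at 0.05). Standard errors were derived from the log2 fold change and its F statistic. DESeq2 1.42.0, limma 3.58.1 on log2(CPM + 1), 3 other scalings, other filters, a block by replicate number and each liver left out were alternatives. The fits were tested on simulated data. All 20 pairs of livers within a group differed beyond sampling noise. Coordinates, transcripts and coding sequences come from GENCODE on mm9. Start sites and promoters come from RefSeq on GRCm38.p6, located in mm9 by exact match.

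The members and lists were chosen with earlier results of these data known. Genes named are all members, in each list up to 2 called genes with the largest rise and 2 with the largest fall, Nr1i2, Nr1i3, Hnf4a and Por, the 5 genes most correlated with Cyp3a11 and up to 4 neighbours within 0.5 Mb.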

Additional observations from a re-analysis of the deposited data

Results flagged for a closer look

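Each member's 5 values in a group were screened with Dixon's gap test at 0.710 (14 groups with any counts), which chance alone passes in about 1 of 20 groups, and 5 values stood apart. For Cyp3a44, Ndrg3 LKO replicate 3 stood at 184 CPM with the other 4 livers of the group between 1.09 and 20.9. The same liver stood apart for Cyp3a41a, at 18.2 CPM against 0.0571 to 1.70, and for Cyp3a16, at 1.19 CPM against 0.0856 to 0.189. For Cyp3a13, Ndrg3 LKO replicate 5 stood at 288 CPM against 140 to 167 CPM in the rest of its group. For Cyp3a41a, wild-type replicate 4 stood at 0.0920 CPM, which is 2 counts, with the other 4 wild-type livers at 0.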

How the results depend on the processing

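Of the members, 2 were called by edgeR in all livers, 1 with library size alone (Cyp3a11, higher) and 5 without a filter on low counts (Cyp3a13 and Cyp3a25 lower, Cyp3a16, Cyp3a41a and Cyp3a44 higher), and the cause of the change with library size was not tested. With an absolute log2 fold change above 1 required, 0 were called by edgeR, 0 also at an unadjusted p under 0.05, 0 by DESeq2 and 1 by limma, and the count over all genes was 2301 in place of 5443. Leaving out 1 liver gave 1 to 2 members and 4431 to 5962 genes. Cyp3a13 lost its call in 1 and Cyp3a25 in 5 of 20 alternatives. No log2 fold change of a member changed sign under any alternative run. With a block by replicate number, 4412 genes and 2 members were called, and the log2 fold changes were -0.80 for Cyp3a13 and -1.07 for Cyp3a25. The livers share only a number: deviations of same-numbered livers correlated at -0.36 to 0.04 and 0 of 10 livers correlated best with its own number. The fits of Cyp3a16, Cyp3a41a and Cyp3a44 without a filter under other tests, and a filter of 1 CPM in 4 livers, were chosen after seeing the data. Cyp3a44 passed that filter through Ndrg3 LKO livers alone (log2 fold change 7.90, adjusted p = 0.00128 by edgeR). It was called in all 14 of its alternatives, with adjusted p up to 0.0147. Being near 0 in wild type, it could be called in any of these only as a rise. Cyp3a16 lost its call in 8 of 13, limma, the block and each wild-type liver left out among them (adjusted p up to 0.195). Depth limits Cyp3a16, which had at most 7 counts in 9 of the 10 livers, and Cyp3a41a, which had at most 2 counts in 7. Most of Cyp3a41b cannot be told from Cyp3a41a in the reads, and the part of this in its 0 counts was not tested.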

Other observations

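The 1 symbol of the subfamily left out, Cyp3a57, had 1 count in each of Ndrg3 LKO replicates 3 and 4 and 0 in the other 8 livers.

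Within 0.5 Mb of the members, 86 other genes were annotated on mm9, 65 of them were counted and 36 tested. Of these, 6 were higher and 10 lower in Ndrg3 LKO, with a median log2 fold change of -0.05, beside 48.6% called among all genes tested. The 4 with the largest change all lay near Cyp3a13. They were Pcolce, an enhancer of procollagen processing (chromosome 5, 138046331 to 138055012, 3.68 CPM in wild type and 17.1 CPM in Ndrg3 LKO, log2 fold change 2.21), the immune receptor gene Pilra (1.42), the connexin gene Gjc3 (-1.20) and Ap4m1, an adaptor subunit of vesicle transport (-1.12), with edgeR adjusted p = 0.000203, 0.0332, 0.00173 and 0.00128.

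Of 5 listed genes of the sex chromosomes, 4 were tested and 1, Eif2s3y, was lower (log2 fold change -0.58, edgeR adjusted p = 0.0127), and with library size alone it was not called (-0.07) and 2 of the 4 were higher.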
